A study of Mus musculus with 16 samples.

Results

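The collagen genes were taken as the protein-coding genes whose mouse symbol has the form Col, a number, a and a second number. Of the 52636 genes listed in the count files, 44 met this rule, and all 44 were among the 21371 genes that passed the filter on low counts and were tested. RNA from lumbar dorsal root ganglia (DRGs) of 16 male C57Bl6/J mice, aged 3 to 4 months per the study's methods, was sequenced with 1 mouse per library and 4 mice per group. Sham-Saline mice had sham surgery and saline, SNI-Saline mice had spared nerve injury (SNI) and saline, Sham-DMI mice had sham surgery and desipramine (DMI), and SNI-DMI mice had SNI and DMI. In SNI the common peroneal and sural branches of the sciatic nerve are tied and cut and the tibial branch is spared. DMI, a tricyclic antidepressant that blocks noradrenaline reuptake, was injected at 15 mg/kg 2 times a day for 3 weeks, beginning 4 weeks after surgery per the labels and 4 months after it per the methods, and all mice were wild type. The sources used here do not say whether the ganglia came from the injured side alone. Each library was taken to hold the pooled ganglia of 1 mouse, so each value would average injured and uninjured neurons and the cells around them.

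Collagens are triple-helical proteins of the extracellular matrix. Fibrillar collagens such as types I, III and V form the tensile fibrils of connective tissue, type IV forms the sheet of basement membranes, type VI forms beaded microfilaments, and the fibril-associated collagens (FACITs) decorate fibrils. In peripheral nerve and ganglia they are laid down mainly by fibroblasts, Schwann cells, satellite glia and vascular cells, and they surround each axon, neuron and vessel.

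All 44 genes code for the repeat that defines the family, in which glycine recurs at a fixed step in each chain so that 3 chains can wind around each other. A run of at least 10 glycine codons (GGN) spaced 3 codons apart was present in 44 of 44 members and in 54 of 21616 other protein-coding genes (0.25%). The longest unbroken run ranged from 344 repeats in Col3a1 to 23 in Col26a1. In 9 of the 11 fibrillar genes it held 337 to 344 repeats, and it was shorter in Col27a1 (217) and Col24a1 (216). The helix repeat of Col5a3 (longest run of 337) and of Col27a1 (217), which rose after injury, is shown beside that of Col4a1 (longest run of 40) and a stretch of Col28a1, a collagen abundant in these ganglia. Each line gives 21 codons (63 coding bases, 5′ to 3′, GENCODE M21 transcripts on GRCm38), and the capitals mark the glycine codons.
Col5a3: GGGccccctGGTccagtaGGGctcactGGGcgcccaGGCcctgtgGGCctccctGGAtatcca
Col27a1: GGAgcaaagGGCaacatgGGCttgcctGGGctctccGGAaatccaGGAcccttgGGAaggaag
Col4a1: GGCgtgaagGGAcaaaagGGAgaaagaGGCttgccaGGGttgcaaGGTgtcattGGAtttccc
Col28a1: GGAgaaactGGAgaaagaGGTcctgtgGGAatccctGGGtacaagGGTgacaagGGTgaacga
The stretch of Col5a3 lies in exons 14 and 15 (chr9:20801104-20801260, minus strand) and that of Col27a1 in exons 6 and 7 (chr4:63244040-63245122, plus strand). The stretch of Col4a1 lies in exons 2 and 3 (chr8:11247051-11267614, minus strand) and that of Col28a1 in exons 7 to 9 (chr6:8158166-8164639, minus strand). Introns within these spans were left out.

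The files held 41194238 to 73920332 counted read pairs per library, and collagen genes took 0.135% to 0.219% of them. Markers of sensory neurons summed to 11100 to 14200 CPM (counts scaled to the normalized library size) in each library, whereas the 10 spinal cord markers, of which 6 stayed under 1 CPM throughout, summed to 20.5 to 52.7 CPM, although spinal cord is the tissue given in the labels, with DRG as the cell type. Skeletal muscle markers reached 330 CPM in 1 SNI-DMI mouse, 93.5 CPM in 1 SNI-Saline mouse and 59.9 CPM in 1 Sham-Saline mouse, and their medians were 5.82 to 14.8 CPM. Sample titles end in an S number, which the labels do not explain. These numbers run from 17 to 24 for DMI and from 33 to 40 for saline, with each group on its own 4 numbers. If they follow an order of processing, an effect of that order cannot be told apart from injury or DMI.

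On the RPKM scale, which divides by exon length and so allows genes to be compared, Col5a3 had the highest level (37.7 ± 7.16, SD over all 16 mice). Col5a3 encodes the α3 chain of type V collagen, a regulatory fibrillar collagen. The next levels were 16.98 ± 1.61 RPKM for Col28a1, 16.5 ± 3.47 for Col1a2, 16.3 ± 1.94 for the FACIT gene Col16a1, 16.1 ± 2.82 for Col4a1 and 14.5 ± 3.52 for Col1a1. These 5 neighbours differed by less than their spread, whereas Col5a3 stood apart from them. Col28a1 encodes a type VI-like collagen with von Willebrand factor domains that is found in peripheral nerve, and Col1a1 with Col1a2 encode type I collagen.
Below them, Col4a2 (14.3 RPKM), Col23a1 (10.4), Col15a1 (9.84) and Col3a1 (9.09) completed the 10 highest. Col4a6, Col6a6, Col17a1 and Col9a1 had the lowest levels, at 0.0372, 0.0356, 0.0265 and 0.0197 RPKM. Col2a1, the main collagen of cartilage, was at 0.404 RPKM. Counts were present in all 16 libraries for 43 members, and Col9a1 was counted in 14. The 2 SNI-DMI libraries with a count of 0 allow up to 3 counts each, by counting error alone. Of the reads on collagen genes, 54.1% fell on fibrillar genes, 13.0% on type IV and 10.7% on FACIT genes.

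**Figure D1:**
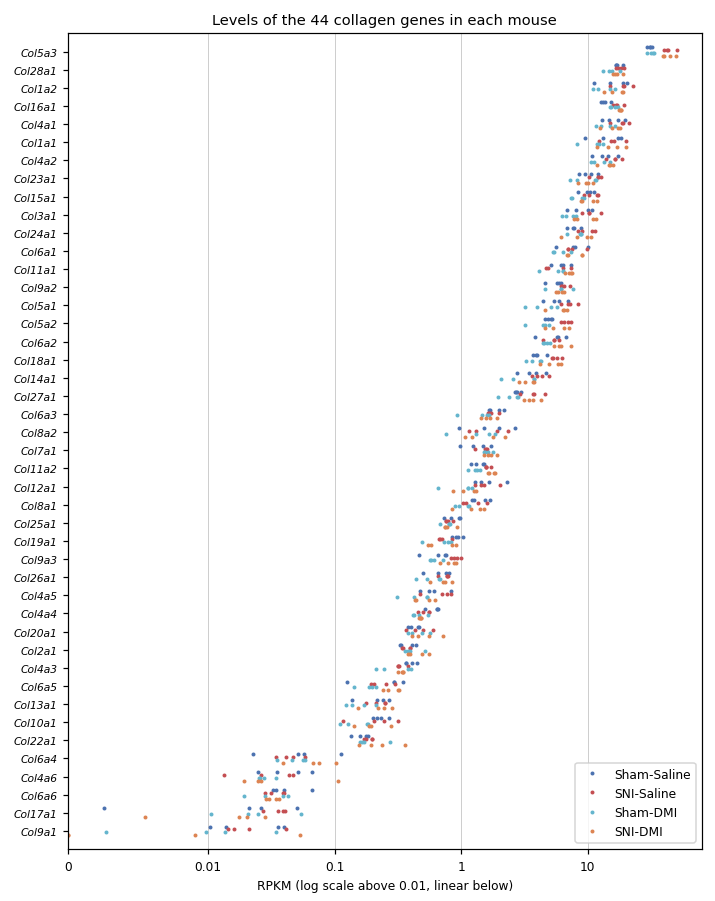
Level of each collagen gene in RPKM (x axis, log scale above 0.01 and linear below) with 1 point per mouse, coloured by group and ordered by the mean over 16 mice. Col5a3 is at the top at a mean of 37.7 RPKM and Col9a1 at the bottom at 0.0197 RPKM.

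Injury with saline was compared first, as SNI-Saline versus Sham-Saline, to ask how prolonged nerve injury alone relates to collagen expression. Of the 44 collagen genes 6 rose and none fell at an adjusted p under 0.1, against 12.0% of all genes tested in either direction and 5.85% among higher genes. The members that rose were Col5a3, Col5a2 and Col27a1 (fibrillar), Col16a1 and Col9a3 (FACIT) and Col18a1 (multiplexin), by 0.32 to 0.51 on the log2 scale. All tests of this kind were by edgeR's quasi-likelihood test with Benjamini-Hochberg adjustment over all genes tested. Whole DRGs were measured, so a change in the number of cells that express a gene and a change in RNA per cell cannot be told apart.
In Col5a3 the 4 Sham-Saline mice had 220, 212, 214 and 201 CPM, and the 4 SNI-Saline mice had 289, 349, 293 and 275 CPM. Every injured mouse lay above every sham mouse, and replicate 2 was the highest. The means were 212 ± 7.77 and 301 ± 32.7 CPM (SD, n = 4), which is a log2 fold change of 0.51 with an SE of 0.0766 (adjusted p = 0.00205).
Col16a1 encodes a FACIT collagen of basement membrane zones and fibril surfaces. It was at 104, 89.1, 86.5 and 92.6 CPM in the Sham-Saline mice and at 115, 130, 114 and 107 CPM in the SNI-Saline mice. The groups did not overlap, and the log2 fold change was 0.33 (SE 0.0634, adjusted p = 0.0129).
Col18a1, whose C-terminal fragment is endostatin, had 25.9, 27.6, 33.4 and 28.2 CPM in the Sham-Saline mice and 37.7, 44.1, 40.4 and 36.4 CPM in SNI-Saline. All injured mice were again above all sham mice, and the log2 fold change was 0.46 (SE 0.112, adjusted p = 0.0273).
Col5a2 encodes the second common chain of type V collagen. It had 46.3, 50.4, 48.9 and 43.9 CPM in the Sham-Saline mice and 58.6, 66.8, 70.2 and 62.7 CPM in SNI-Saline, without overlap (log2 fold change 0.45, SE 0.126, adjusted p = 0.0465).
Col27a1, a fibrillar collagen with a shorter helix, had 38.6, 35.04, 36.2 and 35.02 CPM in the Sham-Saline mice and 48.7, 59.4, 47.8 and 38.3 CPM in SNI-Saline. SNI-Saline replicate 4 lay within the sham range, and the log2 fold change was 0.42 (SE 0.122, adjusted p = 0.0499).
Col9a3 encodes a chain of type IX collagen. It had 2.87, 2.91, 1.79 and 2.51 CPM in the Sham-Saline mice and 3.19, 3.88, 3.57 and 3.41 CPM in SNI-Saline (log2 fold change 0.48, SE 0.149, adjusted p = 0.0657). Its exons share 234 bases with Tcfl5 on the opposite strand, and because the use of strand in counting is not given in the sources used here, this value is uncertain.

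**Figure D2:**
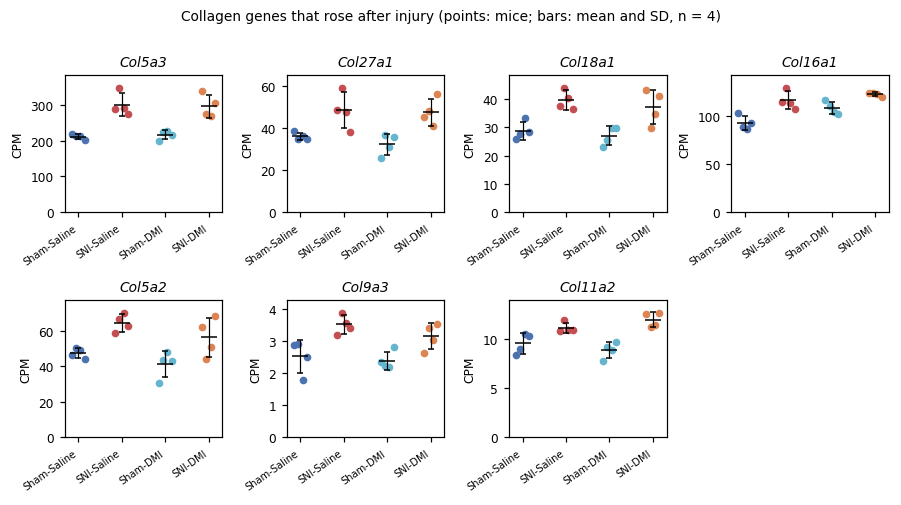
CPM (y axis, from 0) of the 7 collagen genes that passed the test in either injury comparison, by group, with 1 point per mouse and bars for the mean and SD of 4 mice. In Col5a3 the 8 injured mice lie at 270 to 349 CPM and the 8 sham mice at 200 to 227 CPM, with and without DMI.

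The remaining 38 members did not pass, and their log2 fold changes ran on both sides of 0. Over all 44, 27 were above 0 (49.9% of all genes were), and the median was 0.13 beside -0.001 for all genes. The median was 0.051 with SNI-Saline replicate 3 left out and 0.069 with Sham-Saline replicate 1 left out. Col1a1 and Col1a2, the type I chains, had log2 fold changes of 0.13 (SE 0.196) and 0.21 (SE 0.17), and Col4a1 had 0.19 (SE 0.138), and the 95% interval of each included 0. Type VI genes had a median of -0.13, with 1 of 6 above 0. The log2 fold change of Col28a1 was 0.04 (95% interval -0.11 to 0.20). The groups did not overlap in 6 members, all higher in SNI-Saline (7.67% of all genes), and the study's rule of a nominal p under 0.05 and a log2 fold change of 0.32 or more in size took in 7 higher and 1 lower (3.64% and 3.51% of all genes).
Macrophage markers moved with the same comparison. Of 10, 5 rose (Cd68, C1qa, C1qb, C1qc and Aif1), and their summed level was 110 to 132 CPM in Sham-Saline and 143 to 244 CPM in SNI-Saline. Of the 10 fibroblast markers none passed in edgeR or DESeq2, 0 had a nominal p under 0.05, and the sums overlapped, at 410 to 555 and 459 to 517 CPM. Schwann cell markers summed to 5090 to 7000 and 6380 to 7620 CPM. Of these 10, 9 had a log2 fold change above 0 (median 0.248), and the only 1 that passed was lower (Scn7a). Satellite glia markers summed to 2190 to 2440 and 2500 to 2920 CPM, without overlap, with 1 of 8 higher (Apoe). Apoe made up most of these sums, with means of 1422 and 1777 CPM. Of the 8 markers 5 were above 0 and 3 below, with a median log2 fold change of 0.028. Injured-neuron markers rose in 9 of 10. The part of these cells in the collagen result was not tested.
The count of 6 fell to 3 when replicate 3 or 4 of Sham-Saline or replicate 2 of SNI-Saline was left out, and Col5a3, Col16a1 and Col18a1 passed in each of the 16 fits without 1 library.

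The same injury comparison under DMI, SNI-DMI versus Sham-DMI, used 8 other mice. Here 3 of 44 collagen genes rose and none fell, all of them fibrillar, against 0.402% of all genes in either direction and 0.374% among higher genes. They were Col5a3, Col27a1 and Col11a2, by 0.43 to 0.56 on the log2 scale.
In Col5a3 the Sham-DMI mice had 200, 225, 227 and 217 CPM and the SNI-DMI mice 339, 274, 270 and 305 CPM. The groups did not overlap, and the means were 217 ± 12.5 and 297 ± 31.9 CPM (log2 fold change 0.45, SE 0.0766, adjusted p = 0.0163).
Col27a1 had 25.7, 36.7, 30.9 and 35.8 CPM in Sham-DMI and 45.2, 48.2, 41.0 and 56.2 CPM in SNI-DMI. Every SNI-DMI mouse was above every Sham-DMI mouse (log2 fold change 0.56, SE 0.123, adjusted p = 0.0772).
Col11a2 encodes a chain of type XI collagen, which nucleates fibrils. It had 7.74, 9.15, 8.82 and 9.66 CPM in Sham-DMI and 12.5, 11.2, 11.3 and 12.6 CPM in SNI-DMI, without overlap (log2 fold change 0.43, SE 0.0908, adjusted p = 0.0715). With saline it had 8.29, 8.98, 10.5 and 10.3 CPM in Sham and 10.7, 11.9, 10.9 and 10.8 CPM in SNI, a log2 fold change of 0.22 (SE 0.0905) that did not pass.
Col18a1 had the fourth smallest p. It had 22.9, 25.5, 29.8 and 29.9 CPM in Sham-DMI and 43.1, 29.7, 34.8 and 41.2 CPM in SNI-DMI, with overlap at SNI-DMI replicate 2, and the log2 fold change was 0.46 (SE 0.113, adjusted p = 0.123 by edgeR's quasi-likelihood test).
Of the other genes that rose with saline, Col5a2 had a log2 fold change of 0.45 (SE 0.127) under DMI, Col9a3 0.40 (SE 0.151) and Col16a1 0.18 (SE 0.0633), and none of them passed. The direction was therefore the same in all 6, and the size was within 1 SE of the saline value in Col5a3, Col5a2, Col18a1 and Col9a3.
All 11 fibrillar genes had a log2 fold change above 0, with a median of 0.43, and 8 of the 11 met the study's nominal rule. This was not particular to the class. All 6 type IV, 3 short-chain, 2 multiplexin and 3 other genes were above 0. So were 5 of 6 type VI genes (median 0.397), 8 of 9 FACIT genes and 3 of 4 transmembrane genes. Over all 44 genes, 41 were above 0 (50.2% of all genes), the median was 0.24, and 13 met the nominal rule, all higher (4.07% of all genes). Without Sham-DMI replicate 1, 33 were above 0 and the median was 0.191. Without SNI-DMI replicate 2 the median was 0.322. The Sham-DMI mice also enter DMI after sham surgery and the interaction tested below, so the shifts of the family in these 3 comparisons are not independent. The groups did not overlap in 7 members, all higher in SNI-DMI (2.89% of all genes).
Across the 2 injury comparisons 26 of 44 members had the same sign (59.1%), a share near that of all genes (64.3%).
Injured-neuron markers rose in 8 of 10, at 117 to 158 and 268 to 461 CPM summed. Of 8 skeletal muscle markers none passed in edgeR, all 8 had a nominal p under 0.05 and DESeq2 called 1. Their sums had medians of 5.91 CPM in Sham-DMI and 5.82 CPM in SNI-DMI, and SNI-DMI replicate 2 held the 330 CPM. No fibroblast, Schwann cell or macrophage marker passed in edgeR in this comparison, with 1, 1 and 8 of 10 at a nominal p under 0.05 and 1, 0 and 2 called by DESeq2. The summed macrophage level was 88.9 to 124 CPM in Sham-DMI mice and 115 to 223 CPM in SNI-DMI mice, and fibroblast markers reached 361 to 534 and 452 to 521 CPM. Above 0 were 8 of 10 fibroblast (median log2 fold change 0.142), 9 of 9 endothelial (0.17) and 8 of 9 mural markers (0.158). So were 8 of 8 satellite glia (0.112), 9 of 10 macrophage (0.643) and 8 of 10 perineurial and meningeal markers (0.199). Of Schwann cell markers 5 of 10 were above 0 (0.003), and of sensory neuron markers 3 of 10 (-0.062). Their part in the collagen result was not tested. The count of 3 depended on single libraries. It fell to 0 without SNI-DMI replicate 4 and to 1 when either Sham-DMI replicate 3 or SNI-DMI replicate 1 was left out, and it rose to 5 when either Sham-Saline replicate 1 or SNI-DMI replicate 2 was. With edgeR on the 8 libraries of the comparison alone it was 0.

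**Figure D3:**
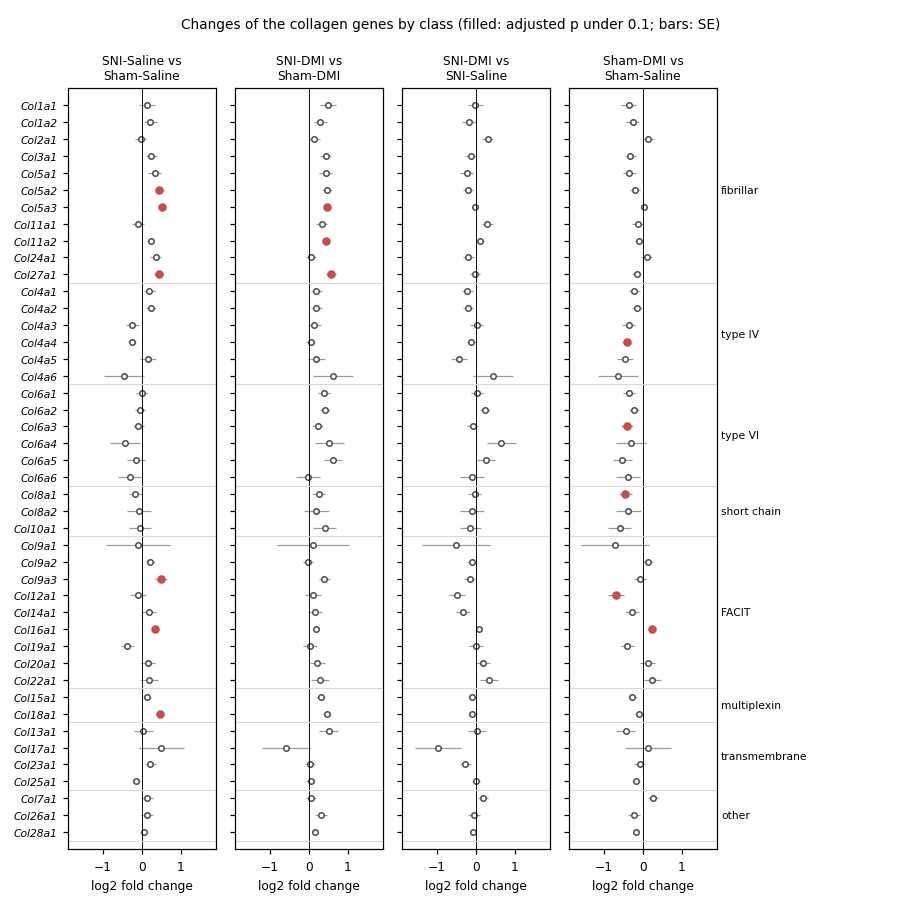
Log2 fold change (x axis) of each collagen gene in 4 comparisons, grouped by class, with bars for the SE and filled points for an adjusted p under 0.1. In SNI-DMI versus Sham-DMI all 11 fibrillar genes, and 41 of all 44 genes, lie right of 0. No gene is filled in SNI-DMI versus SNI-Saline.

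DMI after injury, SNI-DMI versus SNI-Saline, is the comparison that asks whether the drug alters the injured ganglion. None of the 44 collagen genes passed in edgeR, where 2.93% of all genes did, and 1, Col12a1, had a nominal p under 0.05 and met the study's rule as a lower gene (3.8% of all genes). DESeq2 also called 0, with 5 at a nominal p under 0.05. The groups overlapped in all 44 members, and did not overlap in 13.3% of all genes. The 4 members with the smallest p are given with their values.
Col12a1, a FACIT collagen of dense connective tissue, had 21.96, 19.5, 30.8 and 22.9 CPM in SNI-Saline and 20.1, 13.1, 19.1 and 15.6 CPM in SNI-DMI. The groups overlapped at 1 mouse, and the log2 fold change was -0.49 (SE 0.199, adjusted p = 0.199). It passed in edgeR on the 8 libraries of the comparison alone (adjusted p = 0.0926), as did Col23a1.
Col4a5, a type IV chain, had 3.17, 5.15, 5.54 and 4.75 CPM in SNI-Saline and 3.75, 2.92, 4.21 and 2.95 CPM in SNI-DMI, with a log2 fold change of -0.43 (SE 0.206). The groups overlapped through the low SNI-Saline replicate 1.
Col2a1 had 3.22, 3.16, 3.65 and 3.62 CPM in SNI-Saline and 5.16, 3.66, 4.52 and 3.53 CPM in SNI-DMI, with a log2 fold change of 0.30 (SE 0.146). Col11a1, the partner of Col11a2 in type XI collagen, had 81.7, 94.5, 61.4 and 60.2 CPM in SNI-Saline and 84.4, 93.4, 95.6 and 90.3 CPM in SNI-DMI, with a log2 fold change of 0.29 (SE 0.145). In both genes the groups overlapped.
For the 6 genes that rose after injury with saline, the 95% interval of the DMI effect included 0. The log2 fold change of Col5a3 was -0.02 with a 95% interval of -0.17 to 0.13, that of Col27a1 was -0.03 (-0.27 to 0.21), that of Col16a1 was 0.08 (-0.05 to 0.20) and that of Col18a1 was -0.09 (-0.31 to 0.13). The sign of Col5a3 turned without SNI-Saline replicate 2 (0.072), SNI-DMI replicate 2 (0.011) or SNI-DMI replicate 3 (0.037). For Col5a2 it was -0.20 (-0.44 to 0.05) and for Col9a3 -0.16 (-0.45 to 0.13), and the lower ends of these intervals are near the size of the rises after injury, 0.45 and 0.48. Over all 44 genes 14 were above 0 (49.0% of all genes) and the median was -0.08, or -0.026, -0.039 and -0.032 without SNI-Saline replicate 2, SNI-Saline replicate 3 and SNI-DMI replicate 2.

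DMI after sham surgery, Sham-DMI versus Sham-Saline, gave 4 collagen genes that fell and 1 that rose, against 23.4% of all genes in either direction (11.9% lower and 11.6% higher). Those that fell were Col12a1, Col4a4, Col6a3 and Col8a1, by 0.41 to 0.70 on the log2 scale, and Col16a1 rose.
Col12a1 had 19.5, 25.1, 35.4 and 22.04 CPM in Sham-Saline and 10.1, 17.2, 18.5 and 17.2 CPM in Sham-DMI, without overlap. The log2 fold change was -0.70 (SE 0.2, adjusted p = 0.0246), and without Sham-Saline replicate 3 the adjusted p was 0.124.
Col4a4, a chain of the specialised α3α4α5 type IV network, had 6.89, 6.87, 6.95 and 5.45 CPM in Sham-Saline and 4.46, 4.38, 5.84 and 4.93 CPM in Sham-DMI. The groups overlapped at 1 mouse each, and the log2 fold change was -0.42 (SE 0.112, adjusted p = 0.0173).
Col6a3, the large chain of type VI collagen, had 20.3, 23.7, 26.1 and 19.7 CPM in Sham-Saline and 11.2, 19.2, 17.3 and 19.99 CPM in Sham-DMI (log2 fold change -0.41, SE 0.143, adjusted p = 0.0586). Sham-DMI replicate 1 was the lowest, and without it the log2 fold change was -0.24 and the call was lost, as it was without Sham-Saline replicate 2 or 3, with edgeR on the 8 libraries and with GC and length trends removed.
Col8a1, a short-chain collagen of vessel walls and endothelial matrix, had 9.95, 12.1, 13.2 and 9.46 CPM in Sham-Saline and 7.58, 9.06, 7.02 and 8.94 CPM in Sham-DMI. The groups did not overlap (log2 fold change -0.45, SE 0.167, adjusted p = 0.0729), and the call was lost in each of the 4 fits without Sham-Saline replicate 2 or 3 or Sham-DMI replicate 1 or 3.
Col16a1 had 116, 111, 104 and 102 CPM in Sham-DMI, above 3 of the 4 Sham-Saline mice (log2 fold change 0.22, SE 0.0634, adjusted p = 0.0242). This comparison shares its Sham-Saline mice with the injury comparison in which Col16a1 also rose.

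**Figure D4:**
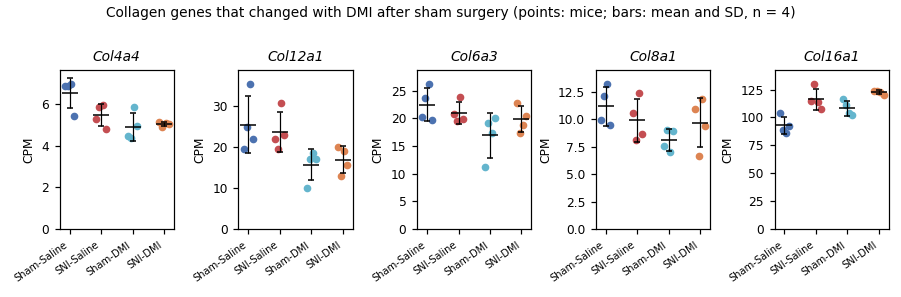
CPM (y axis, from 0) of the 5 collagen genes that passed in Sham-DMI versus Sham-Saline, in all 4 groups, with 1 point per mouse and bars for the mean and SD of 4 mice. Col12a1 and Col8a1 do not overlap between the 2 sham groups, and Col16a1 is higher in Sham-DMI.

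Over the family 35 of 44 genes were below 0, with a median of -0.25 (-0.16 without Sham-Saline replicate 3), while 46.7% of all genes were above 0 with a median of -0.021. All 6 type IV and all 6 type VI genes were below 0, and 12 members met the nominal rule, all lower (7.57% of all genes). The groups did not overlap in 4 members, all lower in Sham-DMI, which are Col12a1, Col8a1, Col19a1 and Col10a1 (8.51% of all genes). With the trends on GC content and exon length removed, 10 of the 44 were above 0, the median was -0.18 and 3 genes passed.
Marker lists of several cell types moved in this comparison. Injured-neuron markers rose in 5 of 10 (Nts, Ecel1, Sprr1a, Npy and Atf3), at 94.6 to 108 CPM summed in Sham-Saline mice and 117 to 158 CPM in Sham-DMI mice. In Nts and Ecel1 every Sham-DMI mouse was above every Sham-Saline mouse. In Sprr1a, Npy and Atf3 the groups overlapped, and Sham-DMI replicates 2 and 4 were highest. Sprr1a was at 12.2 and 9.19 CPM in these, and at 1.81 and 1.67 CPM in replicates 1 and 3. Of 10 sensory neuron markers 4 rose and 1 fell, of 8 satellite glia markers 2 rose and 2 fell (2190 to 2440 and 2360 to 2930 CPM), and 2 of the 5 spinal cord markers tested fell. Of 9 endothelial markers 2 fell (Tek and Flt1), at 133 to 179 CPM summed in Sham-Saline and 124 to 142 in Sham-DMI. Of 9 mural markers 2 fell (Abcc9 and Notch3), at 288 to 339 and 248 to 277 CPM. None of the 10 fibroblast markers passed in edgeR or DESeq2, with 2 at a nominal p under 0.05, at 410 to 555 and 361 to 534 CPM. Of 10 neutrophil markers 8 fell, from 11.8 to 44.1 CPM to 4.65 to 20.3 CPM. Below 0 were 8 of 10 fibroblast (median log2 fold change -0.212), 8 of 9 endothelial (-0.245) and 8 of 9 mural markers (-0.252). So were 10 of 10 macrophage (-0.214, Mrc1 passed) and 8 of 10 perineurial and meningeal markers (-0.182). Of Schwann cell markers 5 of 10 were below 0 (0.007), and of sensory neuron markers 2 of 10 (0.161). Their part in the collagen result was not tested. With Sham-Saline replicate 1 left out 13 collagen genes passed, and with Sham-Saline replicate 3 left out 2 did. Leaving out Sham-DMI replicate 1 gave 3 and Sham-DMI replicate 2 gave 8.
The 2 DMI comparisons had the same sign in 31 of 44 members (70.5%), near the 69.3% of all genes.

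The difference between the DMI effects after injury and after sham surgery was tested as an interaction. None of the 44 members and 0.0% of all genes passed in edgeR, 2 members had a nominal p under 0.05 and met the nominal rule as higher (2.24% of all genes), and DESeq2 called 0, with 3 at a nominal p under 0.05. Of the 44 members 33 were above 0 (51.3% of all genes), with a median of 0.18, and 28 were above 0 after removal of GC and length trends, with a median of 0.076. Leaving out 1 library gave medians from 0.075 (Sham-DMI replicate 1) to 0.239 (Sham-DMI replicate 4), with 0.081 without Sham-Saline replicate 3 and 0.105 without SNI-DMI replicate 1. The summed collagen level was lowest in Sham-DMI, at a mean of 1511 ± 137 CPM (SD). It was 1681 ± 190 in Sham-Saline, 1967 ± 174 in SNI-Saline and 1859 ± 188 in SNI-DMI. The same Sham-DMI mice enter injury under DMI, DMI after sham surgery and the interaction, so these shifts are not independent. The 4 collagen genes with the smallest p for the interaction were Col6a2, Col6a5, Col11a1 and Col4a4.
Col6a2, a core chain of type VI collagen, had 31.8, 47.6, 56.0 and 48.5 CPM in the Sham-Saline mice, 45.2, 45.3, 49.2 and 37.2 CPM in SNI-Saline, 42.1, 37.9, 39.9 and 37.2 in Sham-DMI and 51.4, 49.6, 61.9 and 45.2 in SNI-DMI. The interaction was 0.46 on the log2 scale (SE 0.184, adjusted p = 0.619).
Col6a5 had 1.18, 2.78, 2.76 and 3.29 CPM in the Sham-Saline mice, 2.83, 2.41, 1.83 and 1.93 CPM in SNI-Saline, 1.98, 1.76, 1.35 and 1.86 in Sham-DMI and 2.27, 2.50, 2.97 and 3.01 in SNI-DMI. Its interaction was 0.78 (SE 0.331). Those of Col11a1 and Col4a4 were 0.42 (SE 0.205) and 0.30 (SE 0.159). In all 4 genes the SNI-DMI mean was above the Sham-DMI mean, and the SNI-Saline mean was below the Sham-Saline mean.

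The genes that fold, cut, cross-link and bind collagen were examined next, from 5 lists of 60 genes, of which 59 were tested. Procollagen is hydroxylated and chaperoned in the endoplasmic reticulum, trimmed by BMP1-like and ADAMTS proteases outside the cell, and cross-linked by lysyl oxidases. After injury with saline, 2 of 19 folding and modification genes rose and 1 fell, and 2 of 13 trimming and cross-linking genes rose and 1 fell, beside 12.0% of all genes.
Loxl2, a lysyl oxidase, had 3.25, 4.77, 3.97 and 3.61 CPM in the Sham-Saline mice and 7.08, 6.66, 7.74 and 8.72 CPM in the SNI-Saline mice (log2 fold change 0.95, SE 0.181, adjusted p = 0.0106). Under DMI it had 3.81, 4.06, 3 and 3.53 CPM in Sham and 8.21, 5.54, 5.15 and 9.89 CPM in SNI (log2 fold change 0.99, SE 0.183, adjusted p = 0.0266). No other gene on the 5 lists passed in that comparison, and in both comparisons all injured mice exceeded all sham mice.
Bmp1, the C-proteinase that trims fibrillar procollagens, rose by a log2 fold change of 0.34 (SE 0.0861) with saline, Plod3, a lysyl hydroxylase, by 0.18 (SE 0.0611), and Ppib, a prolyl isomerase of the endoplasmic reticulum, by 0.21 (SE 0.0702). Adamts3, an N-propeptidase, fell by 0.50 (SE 0.137) and Colgalt2, which adds galactose to hydroxylysine, fell by 0.16 (SE 0.0521).
Serpinh1, the collagen chaperone HSP47, did not pass in any comparison. With saline it ranged from 48.8 to 67.2 CPM after sham surgery (mean 57.7) and 60.3 to 72 CPM after SNI (mean 67.6). Under DMI the ranges were 52.4 to 72 CPM (mean 62.2) and 64.8 to 94.8 CPM (mean 79.1). P4ha1, the catalytic chain of prolyl 4-hydroxylase, had log2 fold changes of -0.01 to 0.18 over the 4 comparisons. Lox had 13.8, 19.7, 29.6 and 30.3 CPM in SNI-Saline and 14.9, 6.57, 15.2 and 14.3 CPM in SNI-DMI, and it did not pass (log2 fold change -0.88, SE 0.305, adjusted p = 0.143).
With DMI, the trimming protease Tll1 fell after injury by 0.50 with an SE of 0.146 on that scale (adjusted p = 0.0996). After sham surgery Adamts14 fell by 0.67 (SE 0.185), Ddr2, a receptor kinase for fibrillar collagen, by 0.44 (SE 0.134), Hspg2, the basement membrane proteoglycan perlecan, by 0.41 (SE 0.147) and Itga1, the α1 integrin chain that binds type IV collagen, by 0.35 (SE 0.117). These were 1 of 13 trimming genes, 2 of 9 receptors and 1 of 11 basement membrane partners, beside 23.4% of all genes in that comparison. Below 0 there were 9 of 9 receptors (median log2 fold change -0.321), 10 of 11 basement membrane partners (-0.218) and 11 of 13 trimming genes (-0.165). So were 6 of 7 collagen-binding matrix genes (-0.148), but only 8 of 19 folding and modification genes (0.02). None of the 7 collagen-binding matrix genes passed in edgeR in any comparison, with at most 1 at a nominal p under 0.05 in a comparison. DESeq2 called 1 of them, for injury with saline.

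Pairs of collagen chains were compared across mice as deviations of log2 CPM from the mean of each group. There were 7 pairs over 16 mice, with permutation p-values adjusted over the 7. Col3a1 and Col1a1 encode chains of different collagens, types III and I, and each other pair holds chains of 1 molecule. Col1a1 and Col1a2 had r = 0.954 (ρ = 0.929), Col3a1 and Col1a1 r = 0.867 (ρ = 0.891), and Col4a1 and Col4a2 r = 0.955 (ρ = 0.959). Each had a permutation p of 1e-05 for both coefficients, the smallest that 100000 permutations can give (adjusted p = 2.33e-05 for r), and without the 2 mice farthest from the median r was 0.93, 0.808 and 0.94. Within the 8 saline and the 8 DMI mice r was 0.993 and 0.898, 0.983 and 0.718, and 0.98 and 0.928. The median r over the 666 pairs of the 37 members at or above a mean of 1 CPM was 0.268. Each mouse gives 1 library, so paired genes share its depth, dissection and cell make-up.
Col5a1 and Col5a2 had r = 0.744 (ρ = 0.685, permutation p = 0.00071 and 0.00411, adjusted p for r = 0.00124), or 0.493 without the 2 farthest mice. It was 0.694 with saline and 0.793 with DMI. Col6a1 and Col6a2 had r = 0.705 (ρ = 0.579, permutation p = 0.00217 and 0.0202, adjusted p for r = 0.00304), or 0.411 without Sham-Saline replicates 1 and 3, the 2 farthest mice. Leaving out the farthest mice also narrows the range of Col6a1, so how far the relation rests on them cannot be told. For this pair r was 0.843 with saline and 0.379 with DMI. Without Sham-Saline replicate 1 alone r was 0.501.
Col4a3 and Col4a4 had r = 0.338 (ρ = 0.3, permutation p = 0.201 and 0.26, adjusted p for r = 0.235; 0.566 without the 2 farthest mice, 0.513 with saline and 0.314 with DMI), and Col4a5 and Col4a6 r = 0.17 (ρ = 0.244, permutation p = 0.532 and 0.36, adjusted p for r = 0.532; 0.46, 0.00768 and 0.326). Without Sham-DMI replicate 2 the value for Col4a3 and Col4a4 was 0.691, and without SNI-DMI replicate 3 that for Col4a5 and Col4a6 was -0.0731. All 3 type IV pairs are transcribed in opposite directions from neighbouring starts. The starts are 21 bases apart for Col4a1 and Col4a2 (chromosome 8), 72 for Col4a3 and Col4a4 (chromosome 1) and 1309 for Col4a5 and Col4a6 (chromosome X). Pairs with this arrangement had r values from 0.17 to 0.955. The lowest value is that of Col4a5 and Col4a6. Col4a6 had only 7 to 51 counts per library and a mean under 1 CPM, so r for this pair is uncertain.

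**Figure D5:**
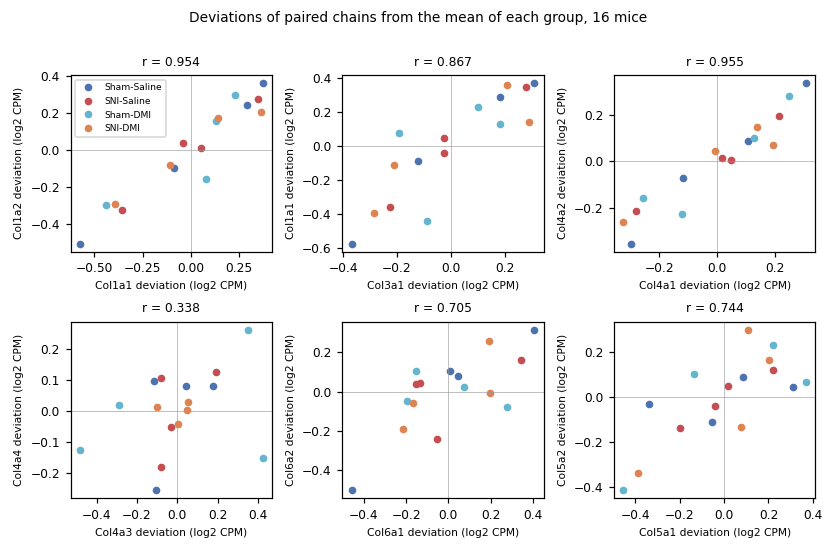
Deviation of each mouse from its group mean in log2 CPM, coloured by group, for 6 of the 7 pairs. The x axis shows 1 chain of a pair and the y axis the other. Col4a5 with Col4a6 is left out because Col4a6 had a mean under 1 CPM. Col1a1 with Col1a2 and Col4a1 with Col4a2 fall along a line (r = 0.954 and 0.955), and Col4a3 with Col4a4 scatters (r = 0.338).

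The promoters of Col5a3 and Col27a1, the 2 collagen genes called in both injury comparisons, were set beside each other. Each window holds the 250 bases before a RefSeq start (GRCm38.p6) and is written 5′ to 3′ on the strand of the gene, and neither overlaps an annotated exon. Capitals mark matches to CCAAT or GGGCGG on either strand (CCGCCC is the reverse complement of GGGCGG).
Col5a3 promoter: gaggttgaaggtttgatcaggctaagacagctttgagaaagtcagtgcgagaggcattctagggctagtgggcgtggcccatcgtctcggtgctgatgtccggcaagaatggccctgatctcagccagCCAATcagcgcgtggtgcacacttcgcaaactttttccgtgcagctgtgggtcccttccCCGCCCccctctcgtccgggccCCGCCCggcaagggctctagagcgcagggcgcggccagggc
Col27a1 promoter: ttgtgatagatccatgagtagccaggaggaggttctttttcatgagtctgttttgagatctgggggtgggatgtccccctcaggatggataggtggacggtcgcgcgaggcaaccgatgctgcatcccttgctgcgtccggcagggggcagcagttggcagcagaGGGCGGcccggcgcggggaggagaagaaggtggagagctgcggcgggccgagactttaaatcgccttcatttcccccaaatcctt
The Col5a3 window (chr9:20815068-20815317, minus strand) has 1 CCAAT and 2 GGGCGG matches, a GC content of 62.8% and no TATAAA. The Col27a1 window (chr4:63215162-63215411, plus strand) has 1 GGGCGG, no CCAAT and no TATAAA, a GC content of 59.6%, and lies downstream of the first GENCODE start of the gene. Over 38 windows of 35 collagen genes, 22 held GGGCGG (57.9%, and 32.7% of all 32851 windows), 13 held CCAAT (34.2% and 33.8%) and 5 held TATAAA (13.2% and 12.4%). These are matches of letters and not binding sites. The collagen genes also differ from other genes in composition, with a median exon GC content of 55.1% beside 49.4% and a median exon length of 7542.5 beside 3405 bases.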

How the data were processed

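The authors made stranded mRNA libraries from the DRGs of 16 mice, aligned paired reads to mm10 and deposited whole-number counts per Ensembl gene without normalization. The submitters' processing notes name HISAT2, HTSeq and DESeq2. Which annotation release was used, and whether strand was used in counting, are not given in the sources used here. The 5 closing lines of each file that name no gene held 18.8% to 20.4% of read pairs and were left out. Symbols, positions and exon lengths came from GENCODE M21 (52403 of 52636 genes matched).

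Genes were kept by filterByExpr, scaled by TMM and fitted with edgeR 4.0.16 (R 4.3.3, limma 3.58.1), by its quasi-likelihood test with 1 coefficient per group and all 16 libraries in 1 fit. P-values were adjusted by the Benjamini-Hochberg method over 21371 genes, with a threshold of 0.1. The depth was 41194238 to 73920332 read pairs, and intervals and the limit of 3 counts for a count of 0 cover counting error only where they rest on counts. Intervals of fold changes are the estimate ± 1.96 SE (95%). RPKM is CPM per kilobase of merged exons. Correlations used log2 CPM with a prior count of 2 and 100000 permutations, two-sided. The procedure was tested on simulated data. Tables were made with pandas 2.3.3 and numpy 2.4.6 in python 3.11.15, rank correlations with scipy 1.17.1 and figures with matplotlib 3.10.9.

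Genes named are every collagen gene that passed in a comparison, the 4 with the smallest p where fewer than 4 passed, the 6 highest in RPKM, listed pathway genes that passed, and Serpinh1, P4ha1 and Lox; other members were named where a count or an extreme called for it, after their values were seen. The members and lists were chosen with earlier results of these data known. Alternatives were upper-quartile normalization, no filter, at least 10 counts in every library, DESeq2 1.42.0, edgeR on 8 libraries, the replicate number as a block, removal of GC content and length trends (mgcv 1.9.3), a prior count of 0.5, and leaving out each of the 16 libraries.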

Additional observations from a re-analysis of the deposited data

Results flagged for a closer look

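Among the 80 groups of 4 mice tested for the 20 collagen genes named by rule, 3 held a mouse set apart from the other three by Dixon's criterion, and chance gives about 1 in 20. Col11a2 was at 11.9 CPM in SNI-Saline replicate 2 and at 10.7, 10.8 and 10.9 CPM in the others. Col12a1 was at 10.1 CPM in Sham-DMI replicate 1 and at 17.2, 17.2 and 18.5 CPM in the others. Col4a4 was at 5.45 CPM in Sham-Saline replicate 4 and at 6.87, 6.89 and 6.95 CPM in the others.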

How the results depend on the processing

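With saline, 6 collagen genes passed for injury, and leaving out 1 library gave 3 (Sham-Saline replicate 3 or 4, or replicate 2 of SNI-Saline) to 7. For injury under DMI, 3 passed, and 0 (without SNI-DMI replicate 4) to 5 (without Sham-Saline replicate 1 or SNI-DMI replicate 2) did without 1 library. It was 1 without Sham-DMI replicate 3 or SNI-DMI replicate 1, 6 with no filter, 6 with DESeq2, 0 with edgeR on 8 libraries and 0 with the replicate block and GC content and length trends removed. For DMI after sham surgery, 5 passed, and 2 (without Sham-Saline replicate 3) to 13 (without Sham-Saline replicate 1) did without 1 library, 3 when Sham-DMI replicate 1 was left out, 8 when replicate 2 of that group was, 8 with DESeq2 and 3 with GC content and length trends removed. For DMI after injury, 0 passed, and 2 with edgeR on 8 libraries. The study's nominal rule gave 13, 12, 1 and 2 for injury under DMI, DMI after sham, DMI after injury and the interaction. The cause of these shifts was not tested. Pathway genes passing were 1 for DMI after injury (2 with no filter, 3 with edgeR on 8 libraries), 4 for DMI after sham (8 with DESeq2) and 1 for injury under DMI (2 with no filter, 3 with DESeq2, 0 with edgeR on 8 libraries). Without 1 library r was 0.0854 to 0.691 for Col4a3 and Col4a4, -0.0731 to 0.354 for Col4a5 and Col4a6, and 0.501 to 0.801 for Col6a1 and Col6a2.

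Signs turned only for values near 0 among the named genes. Col1a1 had -0.01 for DMI after injury, 0.007 with the replicate block and -0.131 to 0.108 without 1 library, and 0.13 for injury with saline, -0.017 without Sham-Saline replicate 1 and up to 0.27. Col5a3 had -0.02 for DMI after injury and -0.08 to 0.072 without 1 library.

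Replicate numbers showed no clear pairing of the mice. Correlations of same-numbered deviations ran from -0.081 to 0.184 with a median of 0, beside a median of 0.001 for other numbers. Of the 24, 5 were over 0.1, and 7 of 16 libraries correlated best with their own number. No expected value was computed for that count, so pairing is not excluded. With the replicate block 6, 3, 0, 9 and 0 collagen genes passed in the 5 comparisons. Depth limits what can be said of genes with few counts, such as Col9a1.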
